A study of Mus musculus with 21 samples.

Results

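The 36 genes described here encode the constitutive 26S proteasome and its activators. They were taken from a fixed list of mouse gene symbols and comprised 7 alpha and 7 beta subunits of the 20S core, 18 subunits of the 19S regulatory particle and 4 proteasome activators. All 36 had a row among the 64361 genes of the count table. Bulk RNA of control and GA-Camk2a cortex and hippocampus was sequenced with prime-seq, an RNA-seq protocol that primes polyadenylated RNA with barcoded oligo(dT) and pools libraries early. GA-Camk2a mice carry a GFP-tagged poly-GA transgene behind a floxed stop cassette. A Camk2a-Cre driver removes the stop, so that poly-GA, one of the dipeptide repeat proteins of C9orf72 ALS, is made in excitatory neurons. The controls are labelled ctrl. A figure legend of the study calls the controls of this line Camk2a, and the full genotype of these libraries was not given in the sources used here. The line is kept on a C57BL/6J background, came from 2 litters, and reached a humane endpoint near the age of sampling. All mice were 30 to 40 weeks old. Of 11 mice, 5 controls and 6 GA-Camk2a animals, 10 gave a library from both tissues. This left 5 control and 6 GA-Camk2a cortex libraries, and 4 control and 6 GA-Camk2a hippocampus libraries, named below by mouse number. These numbers follow the labels, and the study's description gives the control numbers of the tissues the other way round. Because poly-GA is known to bind proteasomes, the comparison asked whether the proteasome genes changed together in tissue that expresses it.

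The proteasome degrades proteins tagged with ubiquitin. Its 20S core is a barrel of stacked rings, in which alpha subunits gate the entrance and the beta subunits Psmb5, Psmb6 and Psmb7 carry the peptidase sites. The 19S particle caps the barrel. Its base holds a ring of ATPases that unfold and thread the substrate, and its lid removes ubiquitin. Other caps exist: PA28alpha and PA28beta, encoded by the interferon-inducible Psme1 and Psme2, PA28gamma (Psme3) in the nucleus, and PA200 (Psme4). Cells exposed to interferon also replace the catalytic subunits with the immunoproteasome subunits Psmb8, Psmb9 and Psmb10.

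Total counts per library lay between 1048201 and 5888102. The ranges were 1048201 to 3609323 in cortex controls, 1112553 to 2857816 in cortex GA-Camk2a, 1754999 to 5888102 in hippocampus controls and 1361268 to 3348378 in hippocampus GA-Camk2a libraries. The lowest count of any of the 36 genes in a library was 10 and the highest 2222. The GFP row, the transgene's tag, held 11 counts over the cortex GA-Camk2a libraries, 4 over the cortex controls, 2 over the hippocampus GA-Camk2a libraries and 0 over the hippocampus controls. These are too few to check the genotype labels. The labels name batches 1 and 2, and each genotype had libraries of each tissue in both batches. The cortex library of control mouse 31 stood apart. Only 3 of the 32 core and regulatory subunits were above the mean of the cortex controls in it, against 21 to 28 in the other 4 control libraries. Values without this library are therefore given below for some genes. Others moved as well, such as the cortex difference of Psmb3 (0.15, or 0.05 without control 31).

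Markers of other cells moved with genotype, and their part in the results below was not tested. In these bulk samples, fewer cells of a type and less RNA per cell cannot be told apart. The summed level of 6 excitatory neuron markers was 1853 to 2347 CPM (counts scaled to a common library total) in cortex controls and 1195 to 1646 CPM in cortex GA-Camk2a libraries. In hippocampus it was 2051 to 2593 CPM in controls and 1084 to 1466 CPM in GA-Camk2a. Of these 6 genes, 4 fell in cortex and 5 in hippocampus by edgeR, and 7 of 10 microglia markers rose in each tissue. The 10 microglia markers summed to 416 to 474 CPM in cortex controls and 1043 to 1584 CPM in cortex GA-Camk2a libraries, and to 366 to 454 and 720 to 1171 CPM in hippocampus. Of 6 astrocyte markers, 4 rose in cortex and 5 in hippocampus. Their sum went from 941 to 1212 CPM in controls to 1674 to 2701 CPM in GA-Camk2a in cortex, and from 1138 to 1324 to 2427 to 3487 CPM in hippocampus. Interferon-response genes rose in 10 of the 10 tested in cortex and 11 of 12 in hippocampus. All 12 summed to 77.2 to 100.2 CPM in cortex controls against 225 to 535 CPM in GA-Camk2a, and to 76.9 to 118 against 233 to 527 CPM in hippocampus. Of 4 blood genes, 3 rose in cortex, with log2 differences of 0.54 to 0.82 over the 4. In hippocampus the differences were 1.02 to 1.22, but 0 of 4 passed, with the lowest adjusted p at 0.101 (edgeR) and 4 of 4 at an unadjusted p under 0.05. Of 6 general neuron markers, 4 fell in cortex and 5 in hippocampus. Among 6 inhibitory neuron markers, 1 rose in cortex and 2 in hippocampus, with 6 and 5 of the 6 above 0. Among 6 oligodendrocyte markers, 1 rose in cortex and 0 passed in hippocampus, and 0 of 5 endothelium markers passed in either tissue. All 7 striatum markers fell in cortex, with sums of 374 to 526 CPM in controls and 122 to 207 CPM in GA-Camk2a. The 4 choroid plexus markers summed to 1803 to 32665 CPM in hippocampus controls and 1843 to 55449 CPM in hippocampus GA-Camk2a libraries, with overlapping ranges, and 0 of 4 passed there (lowest adjusted p = 0.314, edgeR, 0 at an unadjusted p under 0.05). No gene of these lists was at 0 in every library of a group. As a check of the tissue labels, all 5 hippocampus markers were higher in the hippocampus than in the cortex of control mice. Of 4 cortex markers, 2 were lower in hippocampus, 1 (Fezf2) was higher and Rorb did not pass the test. The 4 cortex markers summed to 165 to 1527 CPM in hippocampus controls and 263 to 389 CPM in cortex controls.

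In cortex, 3 of 36 passed an adjusted p of 0.05 in edgeR, all higher in GA-Camk2a: Psme1, Psme2 and Psmb6. Of all 13058 genes tested, 12.5% passed. In hippocampus, 3 of 36 passed, with Psme2 higher and Psmb5 and Psmc5 lower, against 10.9% of 14884 genes. Both counts lie near the share of all genes that passed. All 36 members passed the filter on low counts in every comparison. The median log2 fold change of the members was 0.06 in cortex, where the median of all genes was -0.01, and 25 of the 36 were above 0, or 21 without control 31. In hippocampus it was -0.03 against 0.02 for all genes, with 14 of the 36 above 0. For 32 members in cortex and 34 in hippocampus, the 95% interval of the fold change lay inside 1.5-fold in either direction. The 36 genes together took 0.516% ± 0.0263 (SD, n = 5) of all counts in cortex controls and 0.546% ± 0.0107 (SD, n = 6) in cortex GA-Camk2a libraries, and 0.468% ± 0.00725 (SD, n = 4) and 0.475% ± 0.0119 (SD, n = 6) in hippocampus.

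**Figure D1:**
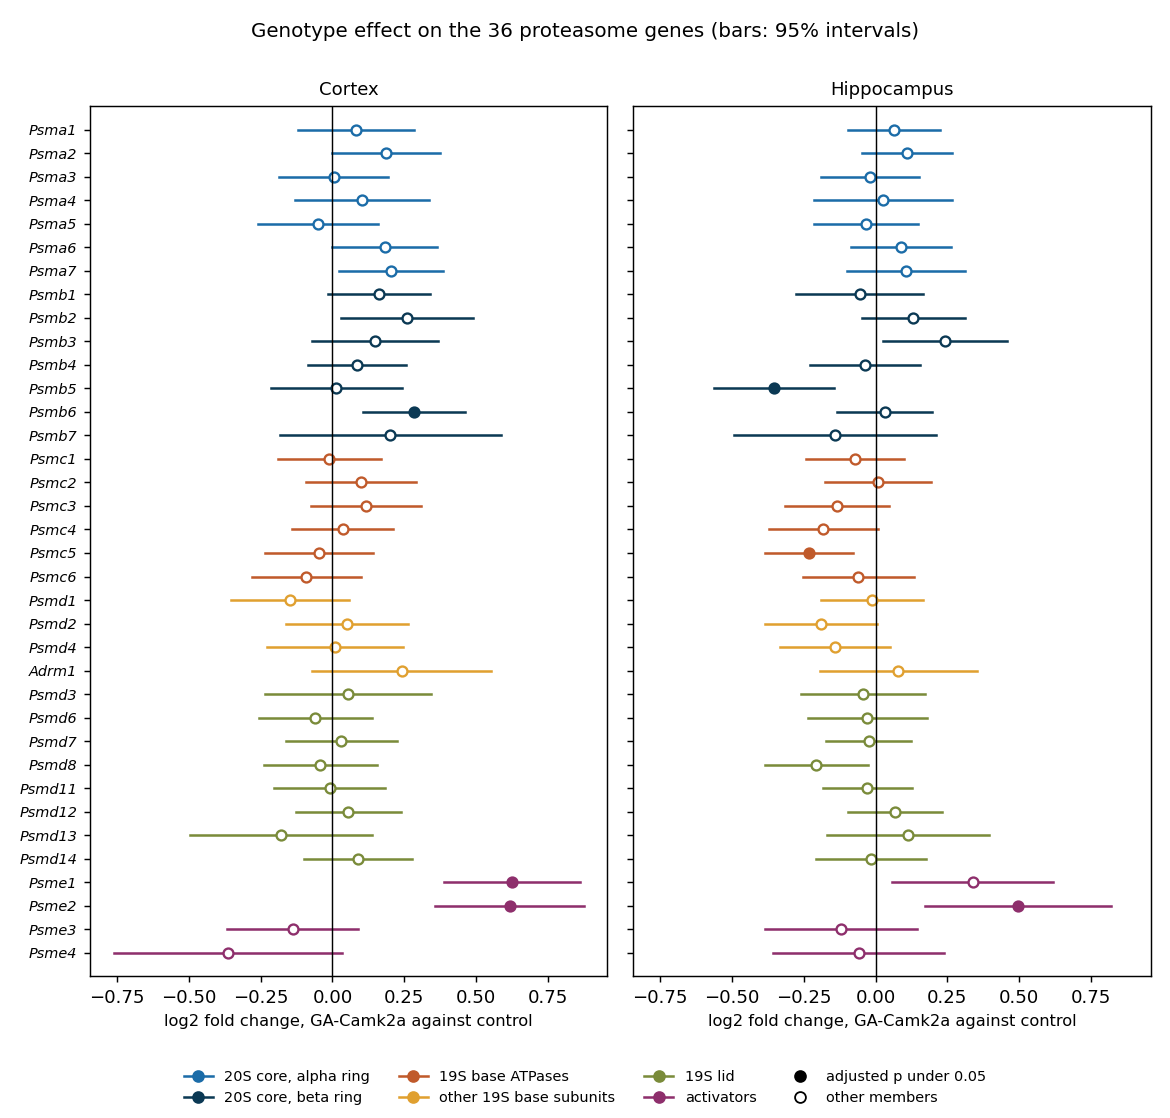
Log2 fold change of GA-Camk2a against control for each of the 36 genes in cortex (left) and hippocampus (right), with 95% intervals from edgeR and filled points where the adjusted p was under 0.05. The activators Psme1 (0.62 in cortex) and Psme2 (0.62 in cortex, 0.50 in hippocampus) lie furthest to the right, Psmb5 lies at -0.35 in hippocampus, and most other genes lie near 0.

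The alpha ring, which forms the gate of the core, held no gene that passed the test in either tissue. In cortex 6 of its 7 genes were above 0, with a median of 0.10 and a range from -0.05 (Psma5) to 0.20 (Psma7). In hippocampus 5 of 7 were above 0, with a median of 0.06 and a range from -0.03 to 0.11. Psma2 was the only gene of the ring whose groups did not overlap in CPM, and only in hippocampus. Its level was 198, 201, 202 and 204 CPM in the 4 hippocampus controls and lay between 212 and 251 CPM, with a median of 217, in the GA-Camk2a libraries. Every GA-Camk2a library was thus above every control, as for 5.6% of all genes in that comparison. On the scale of the fit, which is corrected for library composition, the difference was 0.11 ± 0.07 (SE, adjusted p = 0.387, edgeR), and in cortex it was 0.19 ± 0.09 (SE, adjusted p = 0.198, edgeR).

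The beta ring held 2 of the called genes, each in 1 tissue. In cortex all 7 beta genes were above 0, with a median of 0.16, and in hippocampus 3 of 7 were, with a median of -0.04. Psmb6, the subunit with caspase-like activity, was at 237, 269, 254, 236 and 286 CPM in cortex control mice 11, 20, 31, 37 and 38. In the cortex of GA-Camk2a mice it lay between 285 and 326 CPM with a median of 314, and 5 of the 6 libraries were above every control. The control mean was 256 ± 21.3 CPM (SD, n = 5), the GA-Camk2a mean was 311 ± 16.2 CPM (SD, n = 6), and Psmb6 rose by 0.29 ± 0.09 on the log2 scale (SE, adjusted p = 0.0310, edgeR). The call was lost in 5 of 11 fits that left out 1 library, with an adjusted p of 0.0686 without control 31, 0.0678 without control 11, 0.0879 without control 37, 0.0636 without GA-Camk2a 35 and 0.0616 without GA-Camk2a 41. It was also lost with no filter on low counts (0.26, adjusted p = 0.230), batch 1 alone (0.26, adjusted p = 0.226) and batch 2 alone (0.33, adjusted p = 0.316). In hippocampus Psmb6 averaged 204 ± 14.9 CPM (SD, n = 4) in control mice, while GA-Camk2a mice averaged 215 ± 7.33 CPM (SD, n = 6), a difference of 0.03 ± 0.08 (SE, adjusted p = 0.854, edgeR).

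Psmb5, the chymotrypsin-like subunit and the main target of clinical proteasome inhibitors, was lower in the hippocampus of GA-Camk2a mice. Its level was 113, 129, 129 and 148 CPM in control mice 11, 20, 31 and 37, and between 90.4 and 116 CPM with a median of 105 in GA-Camk2a libraries. Of the 6 GA-Camk2a libraries, 4 were below every control. Psmb5 fell by 0.35 ± 0.10 on the log2 scale (SE, adjusted p = 0.0309, edgeR), and its mean was 130 ± 14.4 CPM (SD, n = 4) in control mice and, in GA-Camk2a mice, 105 ± 9.81 CPM (SD, n = 6). The call was lost in 5 of 10 fits that left out 1 library. Without control 37, which had the highest level, the difference was -0.25 (adjusted p = 0.124). The adjusted p was 0.0594 without GA-Camk2a 16, 0.0605 without GA-Camk2a 41, 0.0729 without control 20 and 0.0604 without control 31. Within batch 1 the difference was -0.43 (adjusted p = 0.311) and within batch 2 it was -0.28 (adjusted p = 0.243). In cortex Psmb5 was at 126, 153, 144, 129 and 150 CPM in the controls and between 101 and 157 CPM with a median of 147 in GA-Camk2a libraries. The groups overlapped there, with 3 GA-Camk2a libraries above every control and 1 below, for a difference of 0.01 ± 0.11 (SE, adjusted p = 0.957, edgeR).

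Psmb7, the trypsin-like subunit, had low counts, with 16 to 102 counts a library. Its cortex levels were 18.1, 17.3, 16.9, 18.7 and 13.3 CPM in controls and 12.2 to 25.6 CPM with a median of 18.1 in GA-Camk2a libraries. The groups overlapped in both tissues, and the differences were 0.20 ± 0.19 (SE, adjusted p = 0.538, edgeR) in cortex and -0.14 ± 0.16 (SE, adjusted p = 0.658, edgeR) in hippocampus. Of the non-catalytic beta subunits, Psmb2 had the largest difference in cortex, 0.26 (adjusted p = 0.139, edgeR), and passed the test only without control 38 (adjusted p = 0.0316). Without control 31 it was 0.18 (adjusted p = 0.381). Psmb3 had the largest in hippocampus, 0.24 (adjusted p = 0.147, edgeR). Neither Psmb1 (0.16 in cortex, -0.06 in hippocampus) nor Psmb4 (0.09 in cortex, -0.04 in hippocampus) passed.

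**Figure D2:**
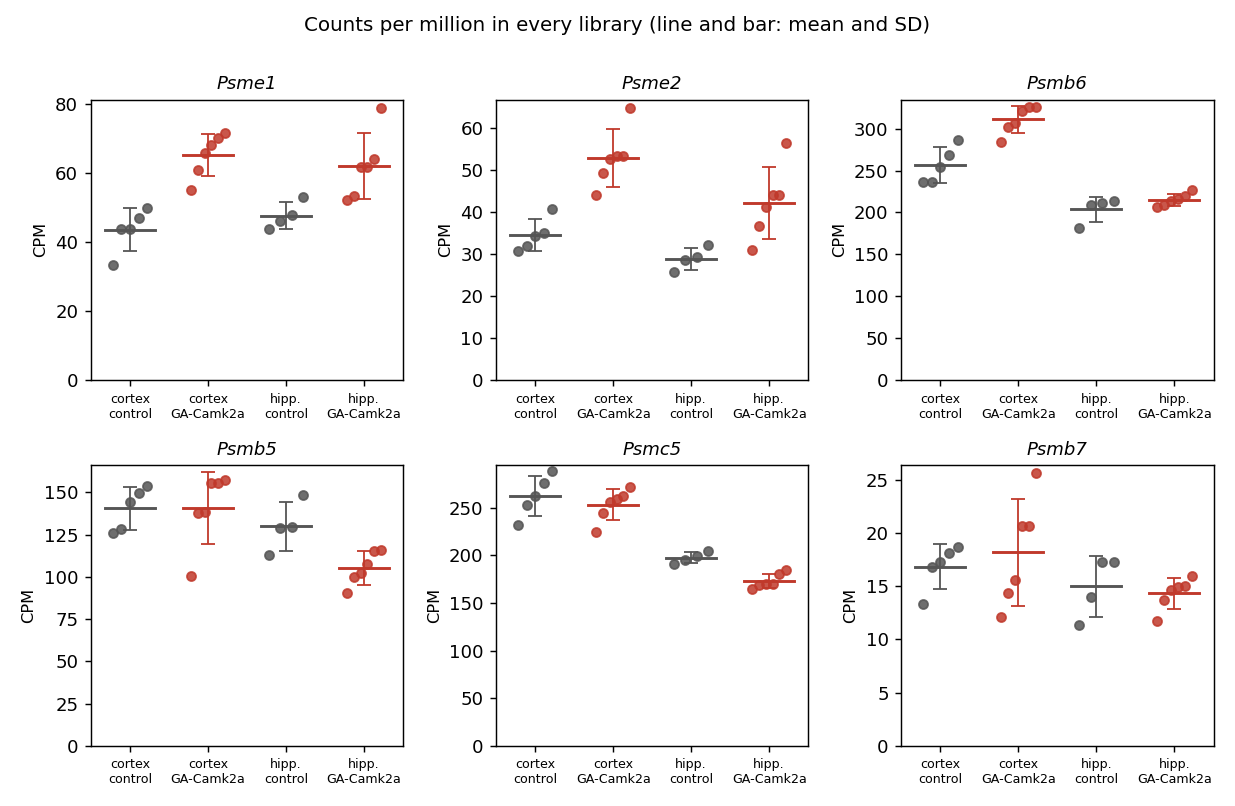
CPM of 6 genes in each library (points), with the group mean (line) and SD (bar), for control (grey) and GA-Camk2a (red) libraries of cortex and hippocampus. Psme1 and Psme2 are above every control in all 6 GA-Camk2a cortex libraries, Psmb6 in 5 of 6, and Psmc5 is below every control in all 6 GA-Camk2a hippocampus libraries.

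The promoters of Psmb5 and Psmb6 are shown because these are the catalytic subunits that passed the test, in opposite directions and in different tissues. Each window runs from 250 bases before to 50 bases after the start of the gene in RefSeq on GRCm38.p6, the build of the promoter table rather than of the counts. Capitals mark a match to TGACNNNGC, the core of the antioxidant response element that NRF1 and NRF2 (encoded by Nfe2l1 and Nfe2l2) recognise, and both windows held 1 match. The Psmb5 window is chr14:54617946-54618245 on the minus strand and the Psmb6 window chr11:70525107-70525406 on the plus strand.
Psmb5: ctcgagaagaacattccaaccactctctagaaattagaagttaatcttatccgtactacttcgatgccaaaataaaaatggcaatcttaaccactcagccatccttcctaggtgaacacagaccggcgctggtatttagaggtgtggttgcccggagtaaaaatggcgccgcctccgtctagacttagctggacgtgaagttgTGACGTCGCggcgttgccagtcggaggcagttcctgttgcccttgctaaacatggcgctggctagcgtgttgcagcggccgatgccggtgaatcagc
Psmb6: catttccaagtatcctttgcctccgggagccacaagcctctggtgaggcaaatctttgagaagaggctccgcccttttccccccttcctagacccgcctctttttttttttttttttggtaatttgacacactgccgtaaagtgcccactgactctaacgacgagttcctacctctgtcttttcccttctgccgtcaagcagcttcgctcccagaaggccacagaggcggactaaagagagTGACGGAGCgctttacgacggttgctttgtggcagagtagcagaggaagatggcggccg
On either strand this motif was found in 6 of the 33 promoters of the 30 members with an entry (18.2%), those of Psmb5, Psmb6, Psmc6, Psmd12, Adrm1 and Psme4, and in 12.4% of the 32851 promoters of the table. The CCAAT box (CCAAT) was found in 12 of these 33 promoters (36.4%) and in 37.4% of all promoters. Psmb1, Psmb2, Psmb7, Psmc3, Psmd3 and Psmd7 had no entry. A match describes the letters only and is not evidence of binding.

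In the 19S particle, 0 of 18 genes passed the test in cortex and 1, Psmc5, in hippocampus. Without adjustment, 0 of the 18 had a p under 0.05 in cortex and 2 in hippocampus. The median difference of the 18 was 0.02 in cortex, with 10 above 0, and -0.04 in hippocampus, with 4 above 0. All 18 intervals lay inside 1.5-fold in both tissues. The base ATPases Psmc1 to Psmc6, which unfold the substrate, ranged from -0.09 (Psmc6) to 0.12 (Psmc3) in cortex and from -0.23 (Psmc5) to 0.01 (Psmc2) in hippocampus. Psmc5 was at 195, 191, 205 and 200 CPM in hippocampus control mice 11, 20, 31 and 37, and between 165 and 185 CPM with a median of 169.6 in GA-Camk2a libraries. All 6 GA-Camk2a libraries were below all 4 controls, as for 4.02% of all genes in that comparison. Psmc5 fell by 0.23 ± 0.07 on the log2 scale (SE, adjusted p = 0.0499, edgeR). This call sat at the threshold and held in 1 of 10 fits that left out 1 library, the one without GA-Camk2a 35. In the other 9 fits the difference lay between -0.26 and -0.22, and the adjusted p reached 0.119. The call was also lost with upper quartile normalization (adjusted p = 0.0665), no filter (0.0874), a stricter filter (0.0514) and thinned counts (0.0819). In cortex Psmc5 was at 276, 252, 232, 263 and 288 CPM in the controls and 225 to 272 CPM with a median of 258 in GA-Camk2a libraries, with overlapping groups (-0.05 ± 0.09 SE, adjusted p = 0.793, edgeR).

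The other base subunits are the scaffold proteins Psmd1 and Psmd2 and the ubiquitin receptors Psmd4 and Adrm1. In cortex they differed by -0.15, 0.05, 0.01 and 0.24 in that order, and in hippocampus by -0.01, -0.19, -0.14 and 0.08, and none passed the test. The 8 lid genes ranged from -0.18 (Psmd13) to 0.09 (Psmd14, the deubiquitinase of the lid) in cortex and from -0.21 (Psmd8) to 0.11 (Psmd13) in hippocampus. Without control 31 the cortex difference of Psmd13 was 0.03. Psmd8 was at 161, 156, 166 and 167 CPM in the hippocampus controls and between 128 and 155 CPM with a median of 146 in GA-Camk2a libraries. Its groups did not overlap in CPM, but the adjusted p was 0.136 (edgeR). Psmd8 was the only other member below all controls in all GA-Camk2a libraries of a tissue. In cortex the groups of 2 members did not overlap, both higher, against 3.5% of all genes higher and 2.67% lower.

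The 32 core and regulatory genes were also followed library by library, as the median deviation of their log2 CPM from the mean of the controls of the tissue. In cortex this median lay between -0.00 and 0.11 in GA-Camk2a libraries, and was 0.04, 0.06, -0.15, 0.03 and 0.10 in control mice 11, 20, 31, 37 and 38. The groups overlapped, and the only value far from the rest was that of control 31. Without control 31, the median of all 36 genes in cortex was 0.04 in place of 0.06. In hippocampus the deviations were -0.07 to 0.06 in GA-Camk2a libraries and -0.04 to 0.04 in controls.

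**Figure D3:**
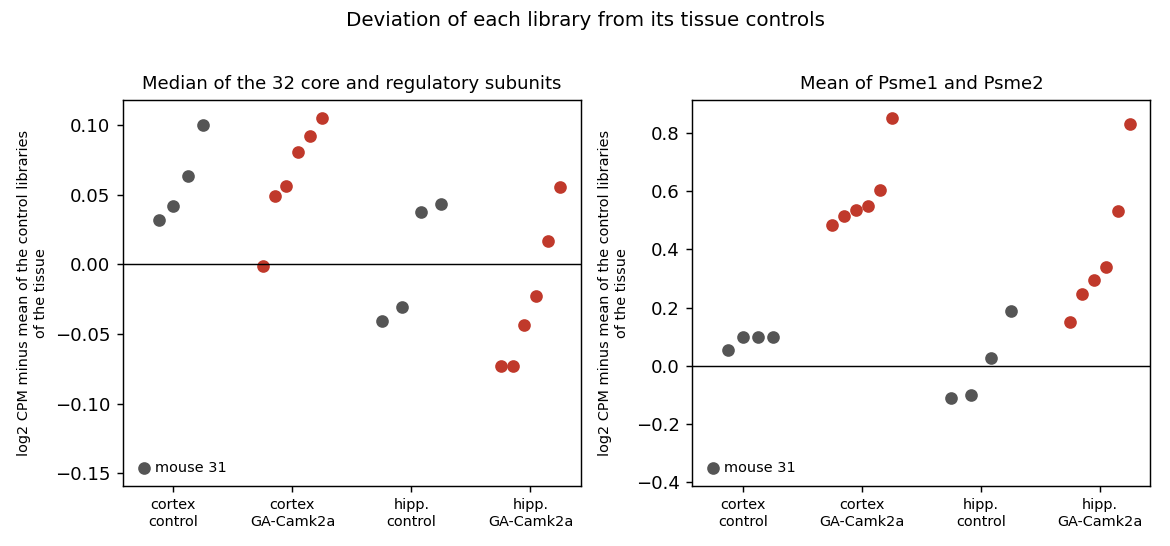
Each point is a library, with the median deviation of the 32 core and regulatory genes (left) and the mean deviation of Psme1 and Psme2 (right) from the controls of the same tissue, in log2 CPM. On the left the genotypes overlap in both tissues and control 31 lies lowest at -0.15, and on the right the GA-Camk2a cortex libraries lie between 0.48 and 0.85, above every control.

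The activators held the largest differences of the 36 genes. Psme1, the PA28alpha gene, was at 43.9, 50.0, 33.3, 47.1 and 43.8 CPM in cortex control mice 11, 20, 31, 37 and 38, and between 55.3 and 71.7 CPM with a median of 67.0 in GA-Camk2a libraries. Psme2, the PA28beta gene, was at 34.3, 31.8, 30.8, 34.9 and 40.7 CPM in the same controls and between 44.0 and 64.7 CPM with a median of 52.9 in GA-Camk2a. For both genes every GA-Camk2a cortex library was above every control. Psme1 rose 1.54-fold, by 0.62 ± 0.11 on the log2 scale (SE, adjusted p = 0.000726, edgeR), and Psme2 rose 1.53-fold, by 0.62 ± 0.12 (SE, adjusted p = 0.00192, edgeR). Both calls held in all 11 fits that left out 1 library. Without control 31, which had the lowest levels of both, Psme1 differed by 0.52 (adjusted p = 0.00355) and Psme2 by 0.54 (adjusted p = 0.0112). With batch 1 alone both passed (0.66 and 0.56, adjusted p = 0.0149 and 0.0325), and with batch 2 alone, 2 libraries of each genotype, neither did (0.56 and 0.72, adjusted p = 0.163 and 0.126).

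In hippocampus Psme2 was at 28.6, 32.1, 25.6 and 29.2 CPM in control mice 11, 20, 31 and 37 and between 30.9 and 56.4 CPM with a median of 42.6 in GA-Camk2a. Of the 6 GA-Camk2a libraries, 5 were above every control, and Psme2 rose 1.41-fold, by 0.50 ± 0.15 on the log2 scale (SE, adjusted p = 0.0484, edgeR). The call held in 3 of 10 fits that left out 1 library, and without GA-Camk2a 16, the highest library, the difference was 0.37 (adjusted p = 0.105). Leaving out any of the 4 controls also took the call away, with adjusted p between 0.0519 and 0.148, as did leaving out GA-Camk2a 35 (0.107) or 41 (0.0895), a fit with no batch term (0.0512) or no filter (0.0961). Psme1 was at 43.8, 53.0, 46.2 and 47.9 CPM in these controls and 52.3 to 79.0 CPM with a median of 61.8 in GA-Camk2a. Here 5 of 6 GA-Camk2a libraries were above every control, and the difference of 0.34 ± 0.13 did not pass (SE, adjusted p = 0.120, edgeR). Psme2b, a near-identical copy of Psme2 with 2351 counts over all libraries, may share reads with it. Psme2b rose by 0.58 in cortex (adjusted p = 0.00211, edgeR) and 0.54 in hippocampus (adjusted p = 0.0124). With the counts of both copies summed, Psme2 differed by 0.60 in cortex (adjusted p = 0.000486) and 0.52 in hippocampus (adjusted p = 0.00921), an alternative chosen after seeing the data.

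The promoters of Psme1 and Psme2 are shown because these genes moved together in cortex. They lie near each other at chr14:55578244-55578543 (plus strand) and chr14:55591052-55591351 (minus strand, the first of 2 RefSeq starts) on GRCm38.p6. Capitals in the Psme1 window mark its match to the motif of interferon regulatory factors, 2 copies of GAAA with NN between them, read here on the opposite strand.
Psme1: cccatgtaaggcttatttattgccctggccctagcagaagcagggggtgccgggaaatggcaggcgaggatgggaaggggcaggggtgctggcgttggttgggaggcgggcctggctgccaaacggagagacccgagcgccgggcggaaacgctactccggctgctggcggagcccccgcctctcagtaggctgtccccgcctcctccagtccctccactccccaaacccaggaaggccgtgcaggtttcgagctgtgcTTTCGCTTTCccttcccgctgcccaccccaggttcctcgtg
Psme2: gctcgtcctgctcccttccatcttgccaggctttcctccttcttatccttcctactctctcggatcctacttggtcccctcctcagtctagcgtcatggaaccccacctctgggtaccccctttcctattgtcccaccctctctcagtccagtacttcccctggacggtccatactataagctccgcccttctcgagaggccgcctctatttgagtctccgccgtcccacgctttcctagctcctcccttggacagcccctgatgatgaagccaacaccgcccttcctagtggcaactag
Neither window of Psme2 held these letters. The motif was found in 3 of the 33 promoters of members (9.09%), those of Psme1, Psmd4 and Psmb3, and in 3.44% of all promoters. TTCNNNGAA, the motif of STAT factors, was found in 1 of 33 (3.03%, Psmd2) and in 8.30% of all promoters.

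The other activators did not pass the test. Psme3, the nuclear PA28gamma gene, was at 51.5, 76.3, 72.5, 87.1 and 56.2 CPM in cortex controls and 47.5 to 89.2 CPM with a median of 55.4 in GA-Camk2a, with overlapping groups. It differed by -0.14 ± 0.11 in cortex (SE, adjusted p = 0.463, edgeR) and -0.12 ± 0.12 in hippocampus (SE, adjusted p = 0.607, edgeR). Psme4, which encodes PA200, had only 10 to 57 counts a library in cortex. It was at 10.5, 14.5, 20.9, 10.6 and 14.1 CPM in cortex controls and 8.99 to 15.7 CPM with a median of 10.9 in GA-Camk2a. The difference of -0.36 ± 0.19 (SE, adjusted p = 0.237, edgeR) had a 95% interval from -0.76 to 0.03. Without control 31, which had the highest level, it was -0.20 (adjusted p = 0.631), and that of Psme3 was -0.06 (adjusted p = 0.819).

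The genotype effect was then compared between the tissues in 1 fit over all 21 libraries. For 0 of 36 members did the effect differ between hippocampus and cortex at an adjusted p of 0.05 in edgeR, where 0.4% of 14751 genes passed. Unadjusted, 3 members had a p under 0.05, and DESeq2 and limma-voom also called 0. The lowest adjusted p was that of Psmb5, whose effect in hippocampus was lower than in cortex by 0.38 ± 0.15 (-0.38, 95% interval -0.70 to -0.07, adjusted p = 0.356, edgeR). Psmb6 followed with -0.27 (95% interval -0.49 to -0.04, adjusted p = 0.378) and Psmc3 with -0.27 (adjusted p = 0.445). For Psme1 the interval ran from -0.65 to 0.09 and for Psme2 from -0.54 to 0.28. The effect was lower in hippocampus for 28 of 36 members, with a median of -0.11 against -0.02 for all genes. It was above 0 for 22.2% of members and 47.5% of all genes. In the same fit the effect on 2 of 6 excitatory neuron markers and 1 of 5 hippocampus markers was lower in hippocampus. That on 4 of 7 striatum markers was higher (all at an adjusted p under 0.05, edgeR), and the part of these markers was not tested.

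The tissues were also compared in control mice alone. Between hippocampus and cortex 8 of 36 members passed the test, 7 lower and 1 higher in hippocampus. This compares with 16.3% of 14435 genes that passed, and 7.6% that passed and were lower in hippocampus. Of all 36, 32 were below 0, with a median of -0.17 where all genes had -0.00. Psmc5 had the lowest adjusted p. It was at 276, 252, 232, 263 and 288 CPM in cortex controls and 191 to 205 CPM in hippocampus controls, with no overlap, and was lower in hippocampus by 0.46 on the log2 scale (-0.46 ± 0.10 SE, adjusted p = 0.00389, edgeR). This was the only member whose call held in all alternatives run. The core genes that were lower were Psmb6 (-0.37, adjusted p = 0.0141), Psma5 (-0.33, adjusted p = 0.0374) and Psma6 (-0.31, adjusted p = 0.0398), all by edgeR. Besides Psmc5, the 19S genes that were lower were the lid genes Psmd12 (-0.37, adjusted p = 0.0167) and Psmd13 (-0.74, adjusted p = 0.0231) and the ubiquitin receptor Psmd4 (-0.37, adjusted p = 0.0389). Psmd13 was at 48.4 CPM in cortex control 31 and 18.7 to 29.6 CPM in the other cortex controls, and without control 31 its difference was -0.53 (adjusted p = 0.0406). Its exons overlap Sirt3 on the opposite strand, and whether counting used strand was not stated. Psmd4 no longer passed with the mouse number as a block, which pairs the tissues of each animal (-0.31, adjusted p = 0.0629). That fit took the 10 mice of both genotypes with both tissues and so left out control 38, and leaving out control 38 alone also ended the call (-0.32, adjusted p = 0.116). Psme4 was higher in hippocampus, at 21.1 to 22.4 CPM against 10.5 to 20.9 CPM in cortex (0.55 ± 0.18 SE, adjusted p = 0.0436, edgeR). Without cortex control 31, 15 members passed in place of 8, and leaving out hippocampus control 11 left 2. The share of all genes that passed also moved, to 22.7% and 11.5% in that order, from 16.3%. Without any 1 of cortex controls 11, 20, 37 and 38 the numbers of members were 4, 5, 4 and 3, and without hippocampus control 20, 31 or 37 they were 4, 3 and 3. Of all genes, 13.6%, 12.4%, 12.8% and 11.5% passed without these cortex controls. Without these hippocampus controls the shares were 12.4%, 14.3% and 15.99%. Over these 9 fits the calls of Psmb6, Psmd12 and Psmd13 held in 6, 7 and 7, and those of Psma5, Psma6, Psmd4 and Psme4 in 1, 2, 3 and 1. All 7 striatum markers were lower in hippocampus controls, with sums of 108 to 150 CPM, and the part of these and of the choroid plexus markers given above was not tested.

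**Figure D4:**
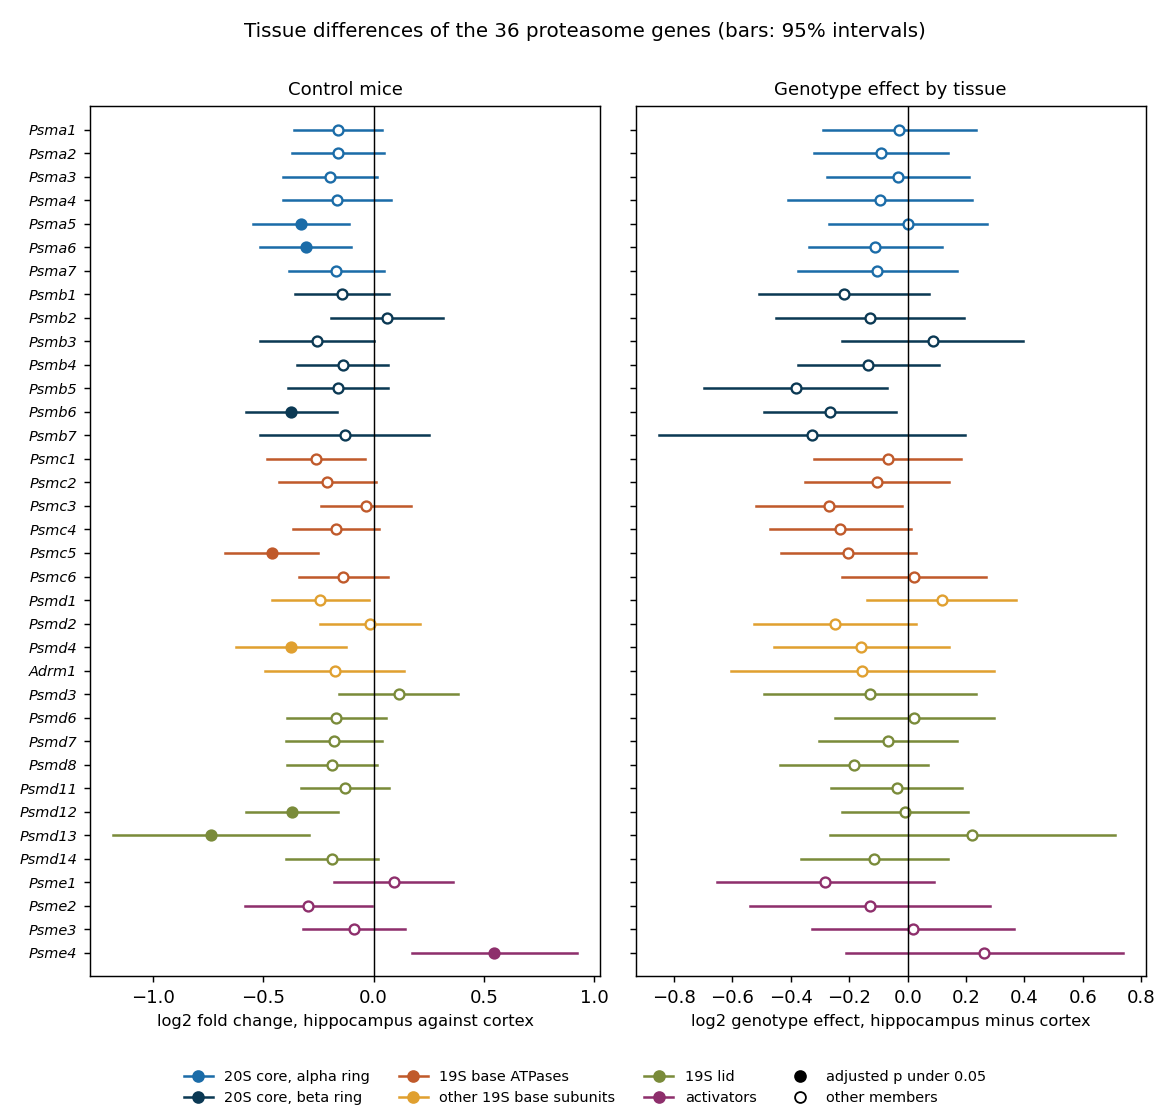
Log2 difference of hippocampus against cortex in control mice (left) and of the genotype effect in hippocampus minus that in cortex (right) for the 36 genes, with 95% intervals and filled points where the adjusted p was under 0.05. On the left 32 of 36 genes lie below 0 and 8 are filled. On the right 28 lie below 0 and none is filled.

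Other genes of the pathway were read from the same fits. Of the immunoproteasome subunits, Psmb8 rose by 2.31 ± 0.20 on the log2 scale in cortex (SE, adjusted p = 6.94e-08, edgeR) and by 1.86 ± 0.28 in hippocampus (SE, adjusted p = 0.000653, edgeR). Its level was 7.6, 5.4, 5.9, 7.1 and 8.3 CPM in cortex controls and 21.4 to 54.8 CPM with a median of 33.4 in GA-Camk2a. Psmb9 rose by 1.75 in cortex (adjusted p = 0.00011, edgeR) and 1.13 in hippocampus (adjusted p = 0.0155). In each tissue every GA-Camk2a library was above every control for both genes. The Psmb9 call in hippocampus was lost without control 37 (adjusted p = 0.0733) and in batch 1 (0.280) or batch 2 alone (0.186), and the Psmb8 call in hippocampus was lost in batch 1 alone (0.187). Psmb8 and Psmb9 stand in for Psmb5 and Psmb6 in the immunoproteasome, whereas Psmb10, which stands in for Psmb7, differed by 0.20 (adjusted p = 0.266, edgeR) and -0.07 (adjusted p = 0.751) and did not pass. Exons of Psmb9 overlap Tap1, and exons of Psmb8 overlap Gm20496, on opposite strands, so their counts are uncertain. The same holds for 9 of the 36 members. Of these, Psmb5 overlaps Mir686 on the same strand over 109 bases, and on the opposite strand Psma5 overlaps 1700010K24Rik (60 bases), Psmb7 Nek6 (253 bases), Psmd13 Sirt3 (329 bases) and Psme1 Emc9 (14 bases). The others were Psma4, Psmc3, Psmd1 and Psmd3. Of 8 assembly factors 0 passed in either tissue, with 2 and 1 at an unadjusted p under 0.05 in cortex and hippocampus. Of 7 proteasome-associated proteins, among them the deubiquitinases Usp14 and Uchl5, 0 passed, with 2 and 0 at an unadjusted p under 0.05.

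Among 5 regulators, Nfe2l2, which encodes the oxidative stress factor NRF2, rose by 1.13 in cortex (adjusted p = 0.000125, edgeR) and 0.76 in hippocampus (adjusted p = 0.00294, edgeR). Its level was 10.5, 14.5, 13.9, 19.2 and 10.8 CPM in cortex controls and 20.6 to 35.1 CPM in GA-Camk2a, with no overlap. The Nfe2l2 call was lost in cortex in batch 2 alone (adjusted p = 0.145) and in hippocampus in batch 1 (0.147) or batch 2 alone (0.0810). Nfe2l1, which encodes NRF1, the factor that raises proteasome genes when proteasomes are inhibited, differed by -0.17 in both tissues and did not pass (adjusted p = 0.360 in cortex and 0.314 in hippocampus, edgeR). Of 12 ubiquitin and shuttle genes, the autophagy receptor gene Sqstm1 rose by 0.51 in cortex (adjusted p = 0.000187, edgeR) and 0.45 in hippocampus (adjusted p = 0.00123). The Sqstm1 call was lost in cortex in batch 2 alone (0.0984) and in hippocampus in batch 1 (0.15) or batch 2 alone (0.0695). Ubqln2, whose product carries ubiquitinated proteins to the proteasome, fell by 0.38 in cortex (adjusted p = 0.0112, edgeR) and by 0.34 in hippocampus (adjusted p = 0.0175). The Ubqln2 call in hippocampus was lost without control 20 (adjusted p = 0.0716), with thinned counts (0.0699) and in batch 1 (0.482) or batch 2 alone (0.0568), and the cortex call was lost in batch 1 (0.0737) or batch 2 alone (0.331). Ubqln4 fell by 0.36 in hippocampus only just past the threshold (adjusted p = 0.0479), a call that held in 2 of 10 fits that left out 1 library. The 9 others did not pass in either tissue. The spermatoproteasome subunit Psma8 and the thymoproteasome subunit Psmb11 were too low to be tested.

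**Figure D5:**
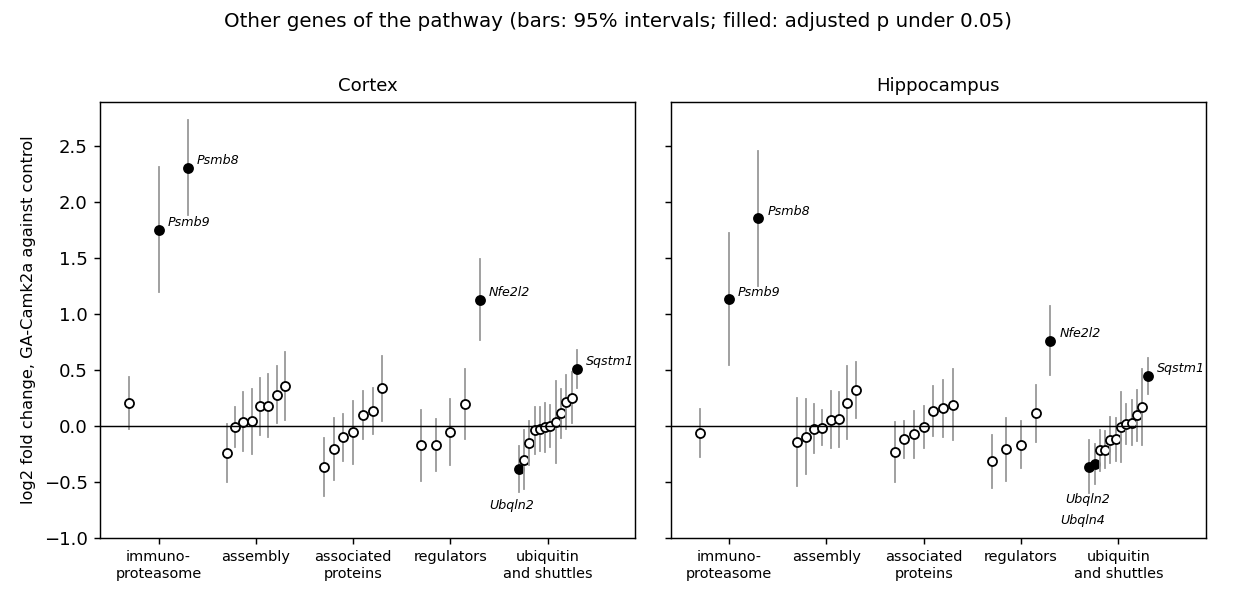
Log2 fold change of GA-Camk2a against control in cortex (left) and hippocampus (right) for genes of the pathway outside the 36, by group, with 95% intervals and named, filled points where the adjusted p was under 0.05. Psmb8 lies highest at 2.31 in cortex and 1.86 in hippocampus, Psmb9, Nfe2l2 and Sqstm1 lie above 0 in both tissues, and Ubqln2 lies below 0 in both.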

How the data were processed

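Gene counts of 21 prime-seq libraries from mouse cortex and hippocampus were used as deposited. The authors made these raw counts per Ensembl gene, and the study's reporting summary names zUMIs. The submitters' processing notes name FastQC 0.11.8, cutadapt 1.12, STAR, DESeq2 1.44 and the build mm39. Whether molecules or reads were counted, the annotation release, and the use of strand and introns were not given in the sources used here, so any PCR duplicates and reads of overlapping genes could add to the counts. Symbols were matched by Ensembl number to GENCODE M21 (GRCm38), which named 43308 of 64362 rows. The GFP row, with 3.38e-05% of all counts, was left out of library sizes and tests. No count column was unused.

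Groups, tissues and batches came from the labels, and replicates are separate mice by number. Each tissue was fitted alone with edgeR 4.0.16 (limma 3.58.1, R 4.3.3): TMM normalization, filterByExpr with a minimum count of 10, batch as a covariate, the quasi-likelihood test, and Benjamini-Hochberg adjustment over all genes tested, with a threshold of 0.05. The methods name DESeq2 with no covariates, so DESeq2 1.42.0 and a fit with no batch term were among the alternatives. The tissue comparison in controls and the genotype-by-tissue comparison used libraries of both tissues. Log2 CPM used a prior count of 2, and plain CPM values are divided by total counts only, so they can differ from fitted fold changes. The scripts were tested on simulated data (seed 11). Total counts of 1048201 to 5888102 set the precision: the median SE of the log2 fold change over the members was 0.0945 in cortex and 0.09 in hippocampus.

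Mouse numbers pair the tissues of 10 mice. Correlations of same-mouse deviations lay between -0.13 and 0.21, with 4 of 10 over 0.1, and the pairing rests on the shared animal. The 36 members and all gene lists were chosen with earlier results of these data known. By rule, all 36 genes were accounted for, and values were given for members called in either tissue, Psmb5, Psmb6, Psmb7, Psme1 to Psme4, and called genes of the pathway lists. Alternatives were other normalizations and tools, no or a stricter filter (minimum count of 30), thinned counts, single batches, leaving out each library, and the mouse as a block.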

Additional observations from a re-analysis of the deposited data

Results flagged for a closer look

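In 11 of 152 sets of libraries examined, the highest or lowest library lay far from the others of its group. Such gaps arise by chance in about 5% of sets. In cortex control 31, the median deviation of the 32 core and regulatory genes was -0.15 (0.03 to 0.10 in the other controls), and the mean deviation of Psme1 and Psme2 was -0.35 (0.06 to 0.10). Cortex GA-Camk2a 35 had a mean deviation of Psme1 and Psme2 of 0.85 (0.48 to 0.60 in the others). Psmb5 was at 101 CPM in cortex GA-Camk2a 30, where the others had 138 to 157 CPM, and Psmc6 at 96.7 CPM in cortex control 37 (110 to 112 CPM).

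In hippocampus controls, Psmb2 was at 204 CPM in mouse 11 (174 to 178 CPM in the others), Psmb6 at 182 CPM in mouse 31 (209 to 214 CPM), Psmc4 at 164 CPM in mouse 20 (186 to 189 CPM), Psmd1 at 105 CPM in mouse 31 (85.3 to 87.8 CPM) and Psmd14 at 107 CPM in mouse 37 (120 to 123 CPM). Psmc2 was at 150 CPM in hippocampus GA-Camk2a 16, against 131 to 136 CPM in the others.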

How the results depend on the processing

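Of the proteasome genes, 3 passed in cortex, against 2 with no filter on low counts or batch 1 alone and 0 with batch 2 alone. In hippocampus 3 passed, against 1 with no filter on low counts and 0 with batch 1 or batch 2 alone, and 2 with upper quartile normalization, no batch term, a stricter filter or thinned counts. Between the tissues of control mice 8 passed, against 2 with no filter, where the median of all genes moved to 0.12, and 1 with counts thinned to the smallest library. DESeq2 gave 6, without Psmd4 and Psme4, and limma-voom gave 11, with Psmc1, Psmd1 and Psmd8 added. Of all genes tested between tissues, 4.53% passed with no filter, 12.8% with thinned counts, 13.1% by DESeq2 and 23.7% by limma-voom. The main fit had 16.3%. For genotype in cortex the share was 2.75% with no filter, 6.24% in batch 1 and 1.95% in batch 2. In hippocampus it was 3.12%, 0.720% and 4.96% in that order, and 9.16% to 14.5% in the fits that gave 2. Leaving out 1 library at a time gave 2 to 4 in cortex, 0 to 2 in hippocampus and 2 to 15 between tissues. Between tissues, 11.5% to 22.7% of all genes tested passed in the fits that left out 1 library. The genotype-by-tissue comparison gave 0 members in every alternative run. The median log2 fold change of the members was 0.04 to 0.10 in cortex and -0.05 to -0.01 in hippocampus when 1 library was left out, and -0.10 in hippocampus with no filter. The cause of these changes was not tested. Single batches, thinned counts and left-out libraries hold less data, and the part of that was not tested either. Without cortex control 31, calls over all genes between tissues rose from 2351 to 3168. No difference that passed the test changed sign. Differences that did not pass could cross 0 over the alternatives, as for Psmb5 (-0.02 to 0.10) and Psma5 (-0.22 to 0.04) in cortex and Psmb1 (-0.25 to 0.13), Psmb6 (-0.04 to 0.08), Psme3 (-0.36 to 0.11) and Psmd13 (-0.13 to 0.20) in hippocampus, so counts of genes above or below 0 include such genes.

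With the mouse as a replicate block, 7 members passed between tissues and 0 in the genotype-by-tissue comparison. Psmd4 lost its call in that fit (-0.31, adjusted p = 0.0629, edgeR), which also left out control 38 and added the GA-Camk2a libraries, so the loss cannot be put down to the pairing. No other call of a member changed.

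Over all genes, calls in cortex fell from 1635 to 1054 with thinned counts, 876 with batch 1 alone and 230 with batch 2 alone, and in hippocampus from 1628 to 115 and 681 with batch 1 or 2 alone. Leaving out the library of control 31 gave 1038 in cortex and 1038 in hippocampus. Between tissues thinned counts gave 1379 in place of 2351. For the genotype-by-tissue comparison, 59 genes passed (22 higher, 37 lower), against 127 by DESeq2, 159 with no filter, 92 with a stricter filter, 36 with no batch term and 26 with thinned counts. With DESeq2 size factors in edgeR the split was 34 higher and 35 lower, by DESeq2 it was 61 and 66, and with the stricter filter it turned to 54 higher and 38 lower. Leaving out 1 library gave 22 to 66 genes in the genotype-by-tissue comparison. Genes with few counts, such as Psmb7 and Psme4, had the widest intervals.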
